A study of Mus musculus with 54 samples.

Results

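Livers of wild-type C57BL/6 males after a lasting high-fat diet were set against livers after a low-fat diet, by sequencing of their small RNA and counting of mature microRNAs (miRNAs). HF mice ate the high-fat diet for 18 weeks, from 6 to 24 weeks of age, and LF mice ate the low-fat diet over the same 18 weeks. All the mice had chow before that and were taken at 24 weeks of age. The comparison rests on the 6 HF and 6 LF liver libraries, 12 of the 54 libraries of a series that also holds epididymal white adipose tissue (eWAT) and sperm. A further 6 liver libraries from mice given high fat for 9 weeks and then low fat for 9 weeks (HFLF) shared the fit and its estimate of the spread. The liver table lists 1966 miRNA names, of which 787 were at 0 in every liver library. The 422 that passed a filter on low counts are the miRNAs described here, and they took 99.99% of the liver counts. The labels number the libraries of each diet without saying that each is a separate animal, so the p-values measure the spread between these libraries, which may in part be technical.

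A miRNA is a short RNA cut from a hairpin precursor, and it guides Argonaute proteins to messenger RNAs that are then repressed. Its targets are chosen mainly by the seed, bases 2 to 8 from the 5′ end, so miRNAs with the same seed form a family with overlapping targets, while miRNAs whose hairpins lie close together in the genome are often cut from the same primary transcript. In liver, miR-122 is the dominant hepatocyte miRNA, miR-802 and miR-103/107 are known in obese mice for impairing insulin signalling, and miR-33 and miR-122 bear on cholesterol handling. Seed relatives and locus neighbours can therefore be read against each other.

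The sequences that carry the comparison are printed 5′ to 3′ from RefSeq (GRCm38.p6), with the seed in capitals. RefSeq gave a mature sequence for 356 of the 422 tested names, and for 22 of the 24 called ones. The first set is shown because its members share a seed with relatives elsewhere in the genome: miR-99b-5p, let-7e-5p and miR-125a-5p come from hairpins within 1 locus, each followed here by relatives.
miR-99b-5p: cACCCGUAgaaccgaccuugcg
miR-99a-5p: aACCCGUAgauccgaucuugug
miR-100-5p: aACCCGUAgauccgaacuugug
let-7e-5p: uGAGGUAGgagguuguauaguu
let-7a-5p: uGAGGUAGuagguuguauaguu
let-7f-5p: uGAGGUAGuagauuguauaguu
let-7c-5p: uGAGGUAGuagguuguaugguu
miR-125a-5p: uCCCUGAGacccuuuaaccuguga
miR-125b-5p: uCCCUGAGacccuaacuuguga
miR-351-5p: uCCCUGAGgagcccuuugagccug
The second set holds miRNAs that were higher in HF livers, with the relatives of miR-107-3p, miR-148b-3p and miR-32-5p beside them.
miR-149-5p: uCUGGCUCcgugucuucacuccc
miR-802-5p: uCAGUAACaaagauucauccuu
miR-335-5p: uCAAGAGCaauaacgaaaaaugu
miR-107-3p: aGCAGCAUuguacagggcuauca
miR-103-3p: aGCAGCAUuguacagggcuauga
miR-148b-3p: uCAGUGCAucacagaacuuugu
miR-148a-3p: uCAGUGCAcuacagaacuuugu
miR-152-3p: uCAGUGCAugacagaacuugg
miR-32-5p: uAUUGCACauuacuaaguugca
miR-92a-3p: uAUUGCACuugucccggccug
miR-25-3p: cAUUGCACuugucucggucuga
miR-7a-5p: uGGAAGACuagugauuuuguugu
miR-3065-5p: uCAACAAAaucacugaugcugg
The third set holds miRNAs that were lower in HF livers outside that locus, among them the X-linked miR-465 names, whose 3p arms have identical mature sequences.
miR-26a-5p: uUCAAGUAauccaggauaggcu
miR-26b-5p: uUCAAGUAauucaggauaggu
miR-592-5p: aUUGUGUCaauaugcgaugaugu
miR-465a-3p: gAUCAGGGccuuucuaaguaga
miR-465b-3p: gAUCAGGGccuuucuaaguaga
miR-465c-3p: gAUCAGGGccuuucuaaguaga
miR-465c-5p: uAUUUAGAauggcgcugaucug
miR-465b-5p: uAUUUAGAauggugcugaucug
miR-470-5p: uUCUUGGAcuggcacuggugagu

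Library totals ran from 7017730 to 10757389 counts in HF livers and from 7458190 to 14394584 in LF livers, with 663 to 706 and 593 to 681 names detected. Levels are CPM, counts brought to a common library size after TMM scaling, which sets the bulk of miRNAs level between libraries, so CPM are scaled values and not shares of a library. A level equal to 3 counts lay between 0.199 and 0.451 CPM, and values near it are close to the limit of detection. TMM factors ran from 0.98 to 1.21 in HF livers and from 0.81 to 1.05 in LF livers. On the first principal component of log2 CPM, with 15.97% of the variance, HF 1 to 4 and HF 6 lay between 1.73 and 9.35, the LF libraries between -7.54 and -3.39, and HF 5 at -1.14. HF 5 thus stood nearest the LF libraries, and LF 4, the lowest on that component, also had the lowest scaling factor and the fewest detected names.

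Livers of HF and LF mice differed in miRNAs of both directions, and the number called depended on method and scaling, as given below. Of the 422 miRNAs tested, 24 (5.69%) were called at an adjusted p below 0.05, 11 of them (2.61%) higher and 13 (3.08%) lower in HF livers. The median log2 fold change over all tested miRNAs was -0.012, and 93 had an unadjusted p below 0.05. Of the 16 tested miRNAs listed for insulin and glucose handling in obese liver, miR-802-5p, miR-107-3p and miR-335-5p were higher and miR-26a-5p was lower. miR-149-5p was higher by more than any other well-expressed miRNA, 3 of the 6 tested arms of the locus of miR-99b, let-7e and miR-125a were lower, and X-linked miRNAs of the miR-465 and miR-470 hairpins were lower at low levels. The most abundant liver miRNA, miR-122-5p, was also lower. Because miR-465a-3p, miR-465b-3p and miR-465c-3p have identical mature sequences, the 24 names stand for 22 distinct sequences.

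**Figure D1:**
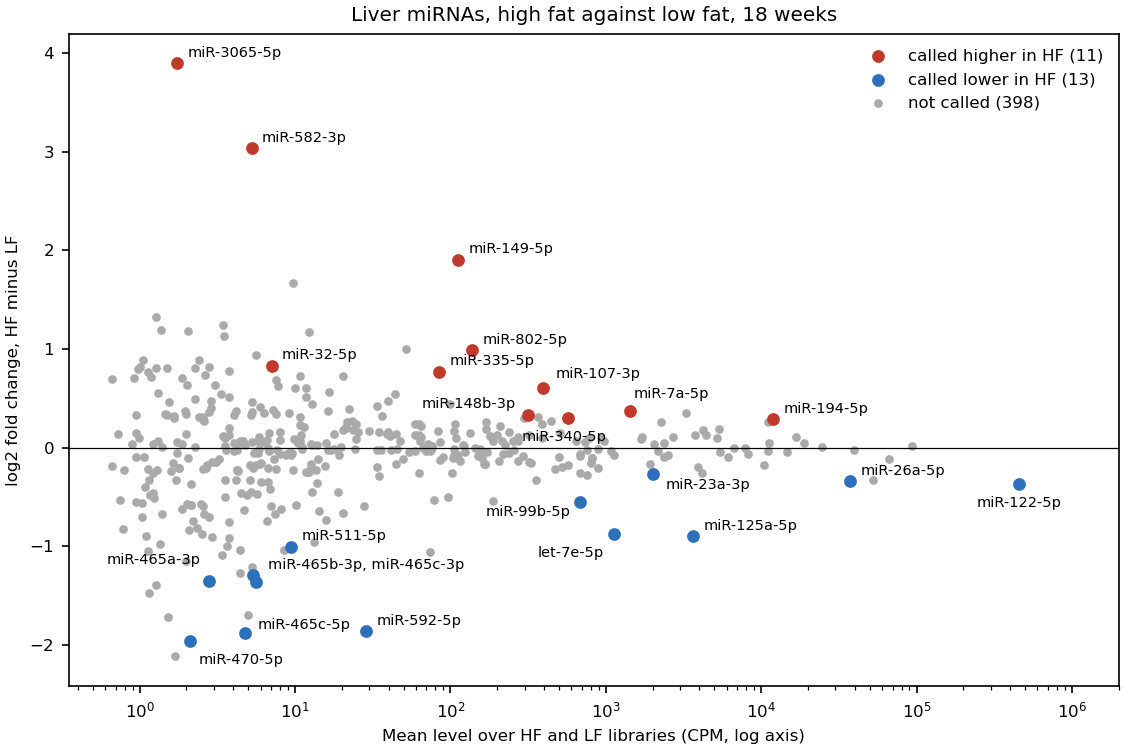
Change against level for the 422 miRNAs tested in liver. The x axis is the mean of the HF and LF group means in CPM on a log axis, the y axis is the log2 fold change (HF minus LF), and red and blue points are the 11 called higher and the 13 called lower. miR-3065-5p, at 3.90, and miR-582-3p, at 3.04, are the farthest up, and the calls at the abundant end on the right lie within 1 log2 unit of 0.

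The split between higher and lower calls depended on the scaling. With library totals as the scale the median over all tested miRNAs moved to 0.18, and 61 (14.5%) were called, 51 higher and 10 lower, with 21 of the 24 among them. With totals that leave out miR-122-5p the calls were 28 higher and 13 lower. Groups without any overlap between the 6 HF and the 6 LF libraries were found for 13 miRNAs (3.08% of those tested), and 8 of these were called. Each of the 24 called miRNAs kept its sign in every one of the alternatives that gave it a value.

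The insulin and glucose miRNAs of obese liver included the best-known responder, miR-802-5p, which is induced in livers of obese mice. Its level ran across 92.2 to 279.5 CPM (median 181) in HF livers and 66.6 to 135 CPM (median 85.99) in LF livers. All HF libraries except HF 5 lay above every LF library (log2 fold change 0.99, SE 0.20, adjusted p = 0.00492). Its hairpin lies on chr16:93369720-93369816 (+) in no annotated host gene on its strand, and its other arm, miR-802-3p, differed in the same direction at a much lower level, 4.80 ± 2.41 CPM in HF livers and 2.03 ± 1.03 CPM in LF livers (SD, n = 6 each; log2 fold change 1.24, adjusted p = 0.0554).

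miR-107-3p, which with miR-103 represses caveolin-1 and lowers insulin sensitivity in mice, was higher in HF livers without overlap. It measured 342 to 659 CPM (median 455) in HF livers and 256 to 336 CPM (median 325) in LF livers (log2 fold change 0.60, SE 0.15, adjusted p = 0.0186). The lowest HF value was that of HF 5, only just above the highest LF value. The hairpin lies within an intron of Pank1, a pantothenate kinase of coenzyme A synthesis, at chr19:34820687-34820773 (-). miR-103-3p, of the same seed and more abundant, averaged 5726 ± 700.2 CPM in HF livers and 5004 ± 281 CPM in LF livers (SD, n = 6 each) and was not called (log2 fold change 0.19, adjusted p = 0.164).

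miR-335-5p, cut from an intron of the imprinted gene Mest (chr6:30741299-30741396, +) and reported as raised in liver and fat of obese mice, measured 77.8 to 142 CPM (median 98.9) in HF livers and 46.1 to 84.7 CPM (median 61.7) in LF livers. A single HF library, HF 6, fell below the highest LF library (log2 fold change 0.77, SE 0.15, adjusted p = 0.00333). Its other arm, miR-335-3p, had a log2 fold change of 0.73 and missed the threshold (adjusted p = 0.0561).

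miR-34a-5p, a p53 target that represses Sirt1 and is often raised in fatty liver, averaged 68.6 ± 39.3 CPM in HF livers and 34.3 ± 10.4 CPM in LF livers (SD, n = 6 each). Its HF libraries split: HF 1, HF 3 and HF 4 lay at 121, 86.2 and 101 CPM, above every LF library, while HF 2, HF 5 and HF 6 lay at 41.5, 30.8 and 30.9 CPM, inside the LF range. It missed the threshold (log2 fold change 1.001, SE 0.32, adjusted p = 0.0554), and it passed in 7 alternatives: with DESeq2 (adjusted p = 0.0478), total counts (0.0147), total counts without miR-122-5p (0.0391) and no filter on low counts (0.00168), and without HF 2 (0.0476), HF 5 (0.0192) or HF 6 (0.0268).

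In the same set, miR-26a-5p, which in mouse liver favours insulin sensitivity, went the other way. It measured 28814 to 39275 CPM (median 31693) in HF livers and 37868 to 44149 CPM (median 42011) in LF livers, with HF 6 alone among the HF libraries above the lowest LF value (log2 fold change -0.34, SE 0.077, adjusted p = 0.0107). With total counts as the scale its log2 fold change was -0.15 and the call ended (adjusted p = 0.150). Its relative miR-26b-5p stood at -0.18 (adjusted p = 0.176). Over the 16 miRNAs listed for insulin and glucose handling in obese liver, 3 were called higher and 1 lower. The shares over all tested miRNAs were 2.61% and 3.08%. In this list 12 had a positive and 4 a negative log2 fold change, and the median was 0.16, against -0.012 over all tested miRNAs. The list counts both arms of miR-802, and it was not tested as a set. Its members were chosen with earlier results of these data known, so these counts are a description and no independent support. Uncalled members of this list include miR-22-3p (0.35, adjusted p = 0.0501), miR-24-3p (0.048) and miR-143-3p (0.048), named here after their values were seen.

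**Figure D2:**
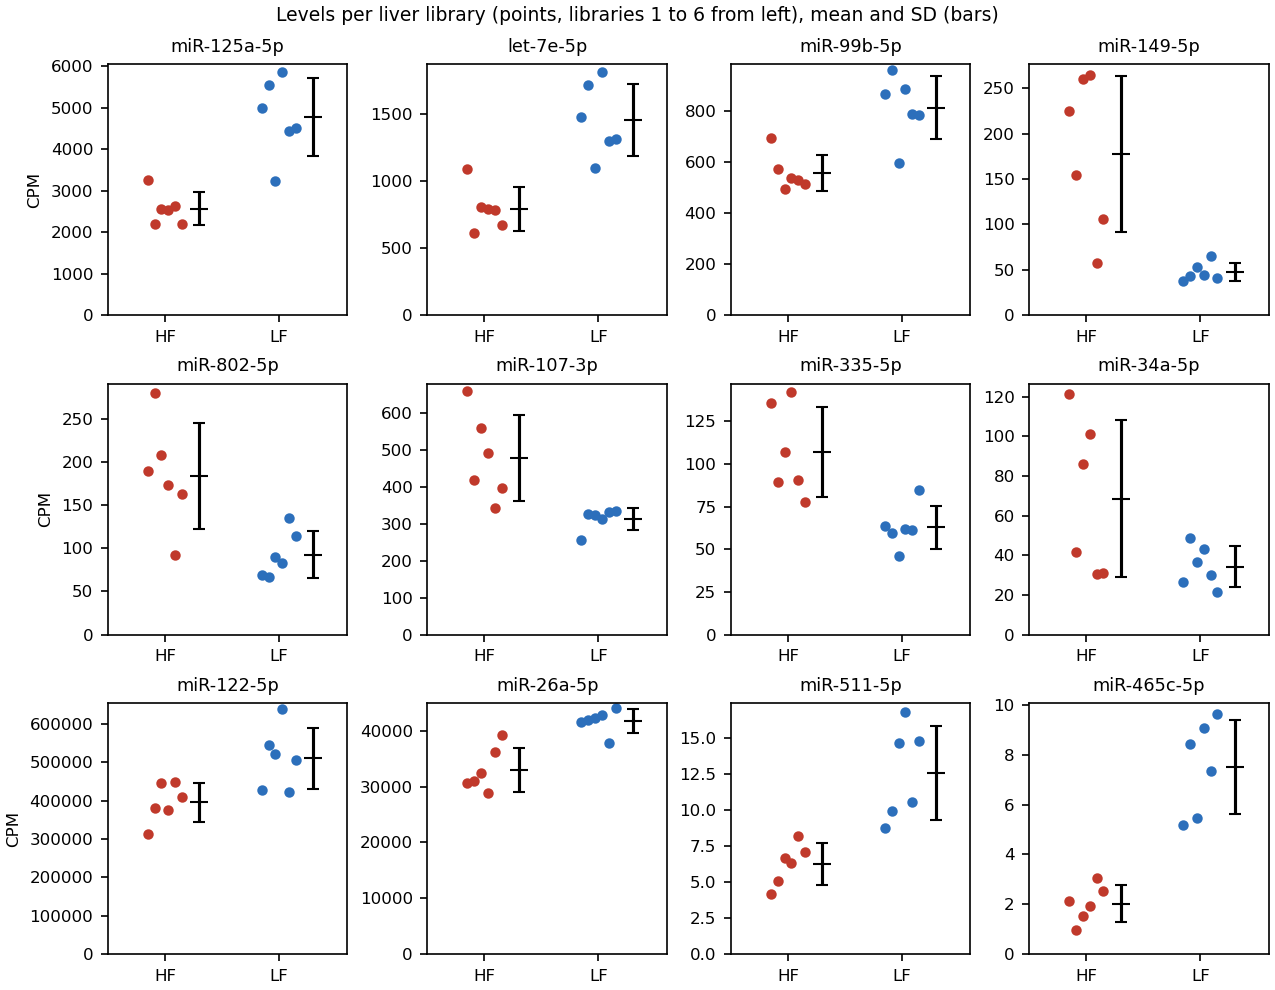
Levels of 12 miRNAs in the HF (red, left) and LF (blue, right) liver libraries in CPM, each panel on its own linear axis from 0. Points are libraries 1 to 6 from left to right, and the black bars are the mean and SD of 6 libraries. miR-107-3p, let-7e-5p, miR-511-5p and miR-465c-5p show no overlap between the diets, and 3 of the 6 HF libraries of miR-34a-5p lie within the LF range.

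Among miRNAs above 10 CPM on average, miR-149-5p had the largest change. It measured 57.6 to 265 CPM (median 189.6) in HF livers and 37.97 to 64.9 CPM (median 43.9) in LF livers. HF 1, HF 3 and HF 4 held 225 to 265 CPM, HF 2 and HF 6 above every LF library, and HF 5 at 57.6 CPM lay below the highest LF library (log2 fold change 1.91, SE 0.29, adjusted p = 0.000433). The hairpin lies in an intron of Gpc1, which encodes the proteoglycan glypican-1, at chr1:92850378-92850443 (+). In liver work in mice miR-149 has been reported to repress Fgf21, a fasting hormone of the liver.

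Among the more abundant miRNAs, others rose in HF livers by small amounts with little spread. miR-148b-3p, from an intron of Copz1 (chr15:103285125-103285221, +), measured 322 to 387 CPM (median 346) in HF livers and 258 to 295 CPM (median 279.8) in LF livers, without overlap (log2 fold change 0.34, SE 0.08, adjusted p = 0.0155). The miR-148 family represses the LDL receptor and the cholesterol exporter ABCA1 in mouse and human liver cells. Its far more abundant member miR-148a-3p was not called, at 7828 ± 1319 CPM in HF livers and 7842 ± 835 CPM in LF livers (SD, n = 6 each; log2 fold change -0.0025, adjusted p = 0.989), and miR-152-3p had 0.30, adjusted p = 0.0501.

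miR-7a-5p, for which Hnrnpk holds a hairpin in an intron (chr13:58392779-58392886, -) and a further hairpin lies at chr7:78888277-78888373 (+), measured 1213 to 1762 CPM (median 1675) in HF livers and 1033 to 1403 CPM (median 1278) in LF livers. The lowest HF value belonged to HF 1 and the other HF libraries lay above every LF library (log2 fold change 0.37, SE 0.087, adjusted p = 0.0124). miR-194-5p, from hairpins beside miR-192 and miR-215, measured 10955 to 14712 CPM (median 13193) in HF livers and 9068 to 12736 CPM (median 10826) in LF livers (log2 fold change 0.29, SE 0.081, adjusted p = 0.0350). Its call ended without LF 4 (adjusted p = 0.0536) or HF 2 (0.0643).

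miR-340-5p, from an intron of Rnf130 (chr11:50069702-50069799, +), measured 582 to 679.6 CPM (median 625) in HF livers and 424 to 619 CPM (median 492) in LF livers (log2 fold change 0.30, SE 0.085, adjusted p = 0.0350). Without LF 4 or HF 2 its adjusted p was 0.0524 or 0.0643, and it was 0.0699 with no filter on low counts. miR-32-5p, from an intron of Tmem245 (chr4:56895229-56895298, -), averaged 9.08 ± 1.71 CPM in HF livers and 5.06 ± 1.84 CPM in LF livers (SD, n = 6 each; log2 fold change 0.83, SE 0.22, adjusted p = 0.0250). Its relatives with the seed AUUGCAC were not called: miR-92a-3p stood at -0.25 on the log2 scale (adjusted p = 0.0501) and miR-25-3p at -0.18 (adjusted p = 0.167). miR-92a-3p passed in 8 alternatives, the lowest adjusted p being 0.0196 with at least 10 CPM in 6 libraries, and 0.0324 without HF 5. The call of miR-32-5p was lost in 5 of 20 alternatives, with adjusted p up to 0.0713, and 0.0558 without LF 4.

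The remaining higher calls were scarce miRNAs. miR-3065-5p was all but absent from LF livers, at 0 in LF 2, LF 5 and LF 6, at 0.0663 and 0.137 CPM in LF 1 and LF 4, below the level of 3 counts, and at 1.12 CPM in LF 3, while HF livers held 1.17 to 6.09 CPM (median 2.58). The groups did not overlap (log2 fold change 3.90, SE 0.84, adjusted p = 0.00651), and the fitted fold change depends on the prior count since LF values sat at the detection limit. Its hairpin at chr11:120014767-120014853 (+) lies opposite the hairpin of miR-338, whose arms were not called (miR-338-5p -0.19, adjusted p = 0.467, miR-338-3p -0.12, adjusted p = 0.915). miR-582-3p, from an intron of the phosphodiesterase gene Pde4d (chr13:109324744-109324824, +), measured 0.539 to 32.4 CPM (median 5.31) in HF livers and 0.344 to 2.61 CPM (median 0.947) in LF livers (log2 fold change 3.04, SE 0.79, adjusted p = 0.0248). HF 1 alone held 32.4 CPM and HF 6 0.539 CPM, and without HF 1 the log2 fold change was 2.08 (adjusted p = 0.0807). Its call also ended without LF 4 (adjusted p = 0.0513).

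The locus of miR-99b, let-7e and miR-125a was lower in HF livers in its 3 main miRNAs. The 3 hairpins lie within chr17:17830188-17830879 (+), inside Spaca6, a sperm acrosome gene, with miR-99b and let-7e in an intron and miR-125a overlapping an exon. miR-125a-5p, known in human cells for repressing the receptors ERBB2 and ERBB3, measured 2186 to 3264 CPM (median 2549.7) in HF livers and 3226 to 5857 CPM (median 4756) in LF livers. HF 1 was the only HF library to reach the LF range, just above LF 3 (log2 fold change -0.90, SE 0.14, adjusted p = 0.000433).

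let-7e-5p, a member of the let-7 family that represses Lin28, Hmga2 and parts of the insulin pathway, measured 615 to 1093 CPM (median 788) in HF livers and 1099 to 1813 CPM (median 1399.8) in LF livers. The groups did not overlap (log2 fold change -0.87, SE 0.14, adjusted p = 0.000534). miR-99b-5p, whose family represses mTOR and the IGF1 receptor, measured 494 to 694 CPM (median 535) in HF livers and 599 to 961 CPM (median 829) in LF livers (log2 fold change -0.55, SE 0.11, adjusted p = 0.00343). HF 1 was the highest HF library and LF 3 the lowest LF library for all 3 of these miRNAs.

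The passenger arms of the same hairpins were also lower in mean, without a call: miR-99b-3p averaged 11.1 ± 3.30 CPM in HF livers and 17.3 ± 3.12 CPM in LF livers (SD, n = 6 each; -0.64, adjusted p = 0.0553), miR-125a-3p stood at -0.58 on the log2 scale (adjusted p = 0.101) and let-7e-3p at -0.21 (adjusted p = 0.801). All 6 arms of the locus had a negative log2 fold change, with a median of -0.61, and this held with total counts, where the median was -0.42. There the call of miR-99b-5p ended (log2 fold change -0.34, adjusted p = 0.0830), and those of let-7e-5p and miR-125a-5p were kept, as in all 21 alternatives.

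Relatives that share a seed with these miRNAs and come from other loci did not pass the test. Of the 10 listed let-7 names, all tested, let-7e-5p was the 1 call, against 5.69% of all tested miRNAs. The 8 other abundant members of the list had log2 fold changes from -0.11 (let-7a-5p) to 0.054 (miR-98-5p). let-7j, tested but outside the list, had 0.066 and was not called. let-7f-5p, the most abundant, measured 86566 to 103247 CPM (median 93981) in HF livers and 84091 to 103259 CPM (median 92508) in LF livers (log2 fold change 0.021, SE 0.067, adjusted p = 0.940). The sum of the 10 names ran from 222920.0 to 271815 CPM in HF livers and 221276 to 278144 CPM in LF livers. With total counts 9 of the 10 had a positive sign and 3 were called, let-7f-5p among those higher (adjusted p = 0.0106). Between the scalings let-7a-5p, let-7b-5p, let-7c-5p and let-7d-5p changed sign, the other abundant members were positive under both scalings and let-7e-5p was negative under both.

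miR-125b-5p, with the seed of miR-125a, averaged 5936 ± 717 CPM in HF livers and 6326 ± 427 CPM in LF livers (SD, n = 6 each; -0.092, adjusted p = 0.636). For miR-99a-5p the log2 fold change was 0.092 (adjusted p = 0.544), and for miR-100-5p it was -0.21 (adjusted p = 0.0554). The differences between the locus members and these relatives were not tested as such.

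**Figure D3:**
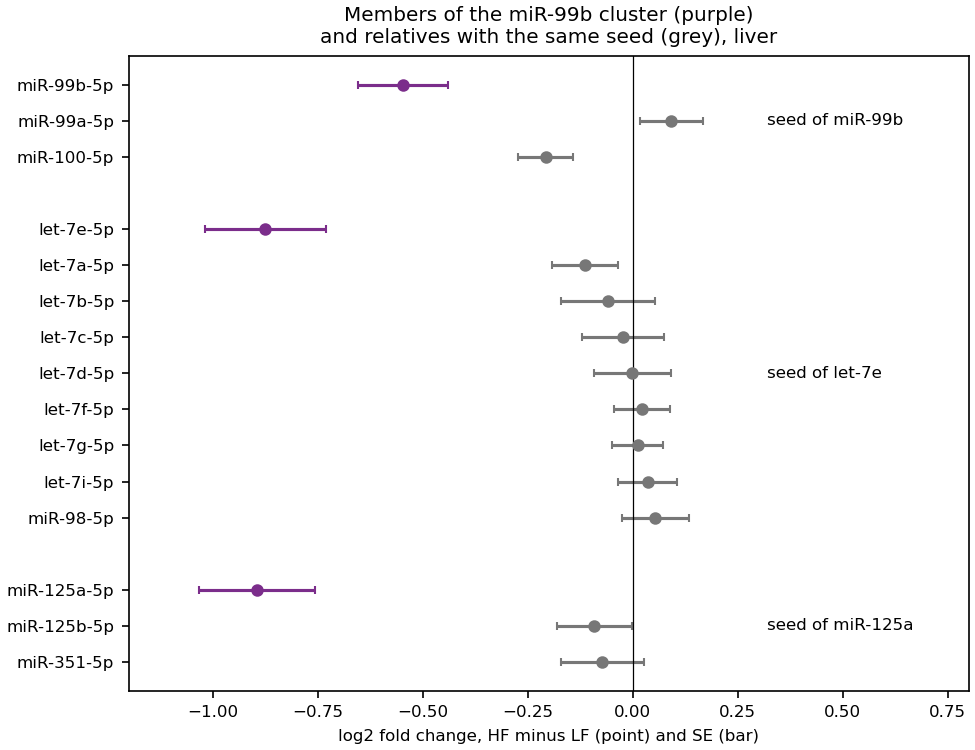
Log2 fold changes (HF minus LF, x axis) of miR-99b-5p, let-7e-5p and miR-125a-5p in purple and of their seed relatives from other loci in grey, in liver. Points are the fitted values and bars 1 SE. The purple points lie at -0.55, -0.87 and -0.90, and the grey points between -0.21 and 0.092. Not drawn are let-7k, at under 1 CPM on average in both diets (0.70, SE 0.74), and let-7j (0.066).

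Of the 37 groups of at least 2 hairpins on a strand within 10 kb of each other and with 2 or more tested miRNAs, 6 held a called miRNA, and in 2 of these more than 1 name was called: the miR-99b locus with 3 and the miR-465 locus with 4. Of the miR-465 names, miR-465a-3p, miR-465b-3p and miR-465c-3p have identical mature sequences. The single call of miR-194-5p counts in both groups that hold its hairpins. Hairpins of 14 of the 22 called names with a RefSeq locus lay within a host gene on the same strand, against 246 of 356 tested names with a locus. miR-23a-3p, which lies beside miR-27a and miR-24-2 at chr8:84208518-84208592 (+), measured 1745 to 1930.0 CPM (median 1839) in HF livers and 1982 to 2488 CPM (median 2197) in LF livers, without overlap (log2 fold change -0.27, SE 0.066, adjusted p = 0.0162). Its neighbours in that locus were not called, with miR-27a-3p at -0.099, adjusted p = 0.595 and miR-24-2-5p at -0.17, adjusted p = 0.394. With total counts the log2 fold change of miR-23a-3p was -0.083 (adjusted p = 0.6247) and the call ended. It also ended with total counts without miR-122-5p (0.0771), with no filter on low counts (0.0935) and without HF 4 (0.0531).

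The hepatocyte miRNA miR-122-5p, which supports cholesterol and fatty acid synthesis in liver, fell to 42.1% ± 2.70 of the counts of HF libraries, against 47.3% ± 2.65 of LF libraries (SD, n = 6 each; exact permutation test, 2-sided, p = 0.00866, the smallest possible being 0.00216). The shares ran from 37.9% to 45.8% in HF livers and from 44.4% to 51.4% in LF livers. On the TMM scale it was lower by more (log2 fold change -0.37, SE 0.10, adjusted p = 0.0350), with HF 3 and HF 5 inside the LF range. That call ended with the HF and LF libraries alone (adjusted p = 0.0566) and without LF 2, LF 3, LF 4, HF 1, HF 2 or HF 4 in turn (0.0580 to 0.0774). From shares of counts, less miR-122-5p and more of other miRNAs cannot be told apart.

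The other hepatocyte markers were mixed. Of the 9 listed, 2 were called higher (miR-802-5p and miR-194-5p, against 2.61% of all tested) and 1 lower (miR-122-5p, against 3.08% of all tested), and 6 had a positive log2 fold change, or 8 with total counts. miR-192-5p averaged 17451 ± 1659 CPM in HF livers and 16205 ± 1411 CPM in LF livers, and miR-101b-3p 12000.3 ± 1442 CPM in HF livers and 10053 ± 1412 CPM in LF livers (SD, n = 6 each), neither of them called (adjusted p = 0.386 and 0.102). Negative besides miR-122-5p were its other arm miR-122-3p (-0.16, adjusted p = 0.386) and miR-148a-3p. The labelled tissue held its defining marker at the highest level of all miRNAs in every library. In bulk tissue, fewer cells of a type and less RNA per cell cannot be told apart.

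Among the 13 cholesterol and fatty acid regulators tested, miR-122-5p was the only call, against 5.69% of all tested miRNAs. miR-33-5p, which lies within Srebf2 and represses the cholesterol exporter Abca1, measured 3.50 to 6.47 CPM (median 4.71) in HF livers and 1.05 to 3.31 CPM (median 2.29) in LF livers, without overlap, and missed the threshold (log2 fold change 1.13, SE 0.34, adjusted p = 0.0501). miR-378a-3p, an intronic miRNA of Ppargc1b, averaged 2471 ± 250.3 CPM in HF livers and 2064 ± 323 CPM in LF livers (SD, n = 6 each; 0.26, adjusted p = 0.0976). Also at the edge and without overlap were miR-425-5p and miR-676-5p, with log2 fold changes of 0.26 and 0.73 and an adjusted p of 0.0501 each. These 2 and miR-33-5p are named after their values were seen.

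Of 17 miRNAs listed for fatty liver and liver injury, miR-122-5p was again the 1 call, against 5.69% of all tested miRNAs, and the median was -0.025. miR-21a-5p, raised in many injured tissues, measured 36019.5 to 56934 CPM (median 46279.8) in HF livers and 42103 to 72651 CPM (median 58653) in LF livers (log2 fold change -0.33, SE 0.13, adjusted p = 0.121). miR-182-5p and miR-183-5p, from 1 locus, stood at -0.54 and -0.53 on the log2 scale with SE 0.32 and 0.31 and gave no call. No member of the miR-29, miR-30, miR-17-92 or miR-10 and miR-196 lists was called. In those lists the smallest p belonged to miR-29c-3p (0.12, adjusted p = 0.602), miR-30e-5p (0.11, adjusted p = 0.565), miR-92a-3p (-0.25, adjusted p = 0.0501) and miR-10a-5p (-0.19, adjusted p = 0.0596). miR-10a-5p had no overlap, with 3344 to 3831 CPM (median 3707) in HF livers and 3884 to 4762 CPM (median 4065) in LF livers, but with total counts its log2 fold change was 0.0014. It passed with at least 10 CPM in 6 libraries (adjusted p = 0.0248), without HF 5 (0.0444) and without LF 1 (0.0441).

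X-linked miRNAs best known from the testis were lower in HF livers, at levels of a few CPM. miR-465c-5p measured 0.972 to 3.08 CPM (median 2.03) in HF livers and 5.17 to 9.64 CPM (median 7.88) in LF livers, without overlap (log2 fold change -1.88, SE 0.30, adjusted p = 0.000534). miR-465a-3p averaged 1.55 ± 0.940 CPM in HF livers and 4.03 ± 1.73 CPM in LF livers (SD, n = 6 each; -1.35, adjusted p = 0.0350). miR-465b-3p and miR-465c-3p, which have the same mature sequence, had log2 fold changes of -1.36 and -1.29 (adjusted p = 0.0254 and 0.0302) and are not independent calls.

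The miR-465 hairpins lie at chrX:66825955-66839125 (-), and the hairpins of miR-470, miR-741, miR-871 and miR-881 at chrX:66796805-66814025 on the same strand. miR-470-5p measured 0.270 to 1.31 CPM (median 0.970) in HF livers and 2.23 to 4.40 CPM (median 3.39) in LF livers, again without overlap (log2 fold change -1.96, SE 0.51, adjusted p = 0.0250). The uncalled neighbours had log2 fold changes of -1.04 (miR-871-3p, adjusted p = 0.0577), -1.72 (miR-881-3p, 0.0806), -1.15 (miR-741-3p, 0.127) and -0.92 (miR-465b-5p, 0.272). All 9 tested names of these 2 neighbouring groups were negative, and several HF values were near the level of 3 counts.

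How the reads were counted bears on these names. The count of miR-465b-3p was exactly 2 times that of miR-465a-3p in 36 of 36 liver and eWAT libraries. For 14 tested names, 3 of them called, the counts in every library were divisible by a number above 1. Whether a read was counted once for each hairpin copy was not tested. miR-26a-5p, miR-194-5p and miR-7a-5p also have more than 1 hairpin and had no such common divisor. With such counts divided by that number and the repeated sequence kept once, 23 names were called, 11 higher and 12 lower, with miR-465c-5p at -1.87 (adjusted p = 0.00145), miR-465a-3p at -1.36 (0.0372) and miR-470-5p at -1.96 (0.0228). The calls of the 3p names ended without LF 4, the library with the highest miR-465a-3p (adjusted p 0.0749 to 0.0872), without HF 2 (0.0518 to 0.0643) and without HF 3 (0.0629 to 0.0731). Without HF 1 those of miR-465a-3p and miR-465c-3p ended (0.0691 and 0.0544), and that of miR-465a-3p also ended without LF 2 (0.0516), without HF 6 (0.0608) and with the HF and LF libraries alone (0.0515). The call of miR-470-5p ended without LF 4 (0.0527) or HF 3 (0.0541).

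miR-592-5p, which overlaps an exon of the glutamate receptor gene Grm8 (chr6:27936655-27936750, -), was among the larger decreases. It measured 1.30 to 27.1 CPM (median 10.4) in HF livers and 21.8 to 69.7 CPM (median 43.4) in LF livers (log2 fold change -1.86, SE 0.45, adjusted p = 0.0162). HF 1 held the least, 1.30 CPM, and HF 5 the most, 27.1 CPM, the single HF library to reach the LF range. The call was kept in all 21 alternatives.

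miR-511-5p, whose hairpin lies within Mrc1, the mannose receptor gene of macrophages and liver endothelium, was lower in HF livers without overlap. It measured 4.14 to 8.20 CPM (median 6.47) in HF livers and 8.75 to 16.8 CPM (median 12.6) in LF livers (log2 fold change -1.004, SE 0.21, adjusted p = 0.00547). The other arm, miR-511-3p, averaged 11.1 ± 0.704 CPM in HF livers and 13.2 ± 2.02 CPM in LF livers (SD, n = 6 each; -0.25, adjusted p = 0.344). miR-511-5p was the 1 call among 12 leukocyte and macrophage markers, against 5.69% of all tested miRNAs, and 7 of the 12 had a positive and 5 a negative sign. The summed level of that list was 1063 to 1429.6 CPM in HF livers and 1249 to 1475 CPM in LF livers, and none of the 12 was at 0 in the group means; the part of leukocyte content in the result was not tested. miR-223-3p, a neutrophil and monocyte marker, averaged 80.05 ± 19.3 CPM in HF livers and 113 ± 37.9 CPM in LF livers (SD, n = 6 each; -0.50, adjusted p = 0.125). It lies outside the naming rule, and the 7 members of positive sign include miR-155-5p (0.27) and miR-142a-5p (0.24), also uncalled.

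Markers of other cell types gave no call on the TMM scale with the filter. With total counts the endothelial miR-126a-3p was called (0.32, adjusted p = 0.0457), and with no filter on low counts the muscle miR-133a-3p (-1.68) and the epithelial miR-205-5p (1.65) were, at an adjusted p of 0.0268 each. The sums of 5 erythroid markers were 1588 to 4345 CPM in HF livers and 2219 to 2870.1 CPM in LF livers. For 2 endothelial markers they were 4393 to 5305 CPM and 3507 to 5090.3 CPM in HF and LF livers, and for 10 fibroblast and stellate cell markers 13109 to 17645 CPM and 11705 to 18158 CPM in HF and LF livers. All these ranges overlap.

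Epithelial and bile duct markers summed to 286 to 564 CPM in HF livers and 253 to 483 CPM in LF livers. In that list miR-205-5p stood out in HF 1, at 62.7 CPM, and in HF 4, at 15.1 CPM, while the other HF libraries lay between 1.85 and 3.28 CPM and LF libraries at 2.36 to 9.47 CPM (median 3.65) (1.67, adjusted p = 0.163). Of the 7 striated muscle markers 3 were tested and none called, all 3 with a negative sign (median -1.06), with a summed level of 21.8 to 97.6 CPM in HF livers and 34.96 to 230.3 CPM in LF livers. miR-133a-3p had -1.69, adjusted p = 0.121. The pancreas list left miR-375-3p alone (-0.035, adjusted p = 0.961).

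The imprinted Dlk1-Dio3 cluster on chromosome 12, a large maternally expressed group of miRNAs, was sparse in liver, with 15 of its 55 listed names tested. None was called, 12 had a negative sign and the median was -0.46. miR-382-5p had the smallest p of them, with 1.14 to 5.33 CPM (median 2.16) in HF livers and 3.10 to 12.6 CPM (median 4.83) in LF livers (log2 fold change -1.27, SE 0.48, adjusted p = 0.103), and without HF 5 it passed (-1.61, adjusted p = 0.0431). The sums over the cluster, 28.9 to 146 CPM in HF livers and 46.6 to 149 CPM in LF livers, overlapped widely.

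**Figure D4:**
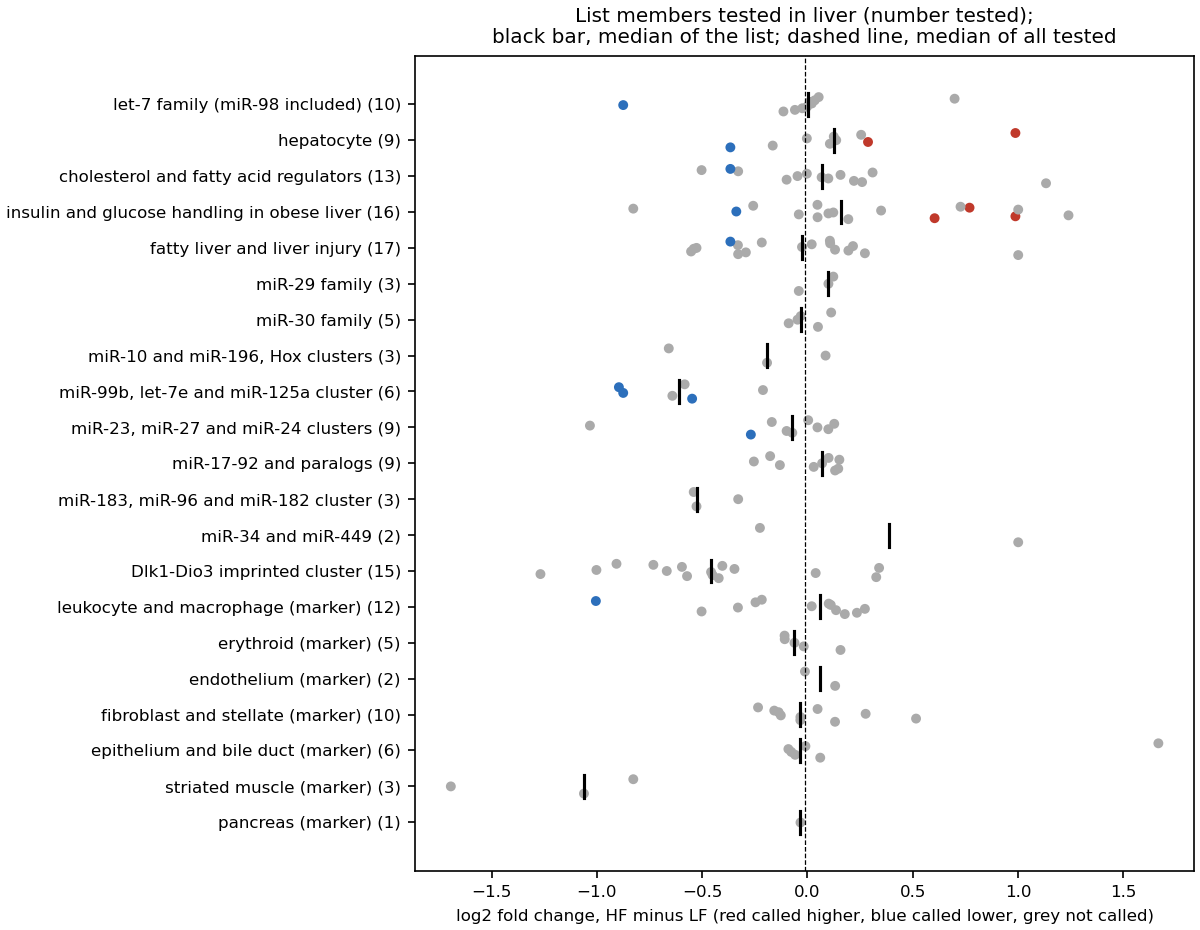
Log2 fold changes (HF minus LF, x axis) of the tested members of 21 miRNA lists, 1 row per list with the number tested in brackets. Points are miRNAs (red called higher, blue called lower, grey not called), black bars are list medians and the dashed line is the median of all 422, -0.012. The list of the miR-99b locus has its 6 points left of 0, and the insulin and glucose list holds 3 of the red points.

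Partner arms gave another reading of the same hairpins. For 17 called names the other arm was also tested, and for 16 of the 17 it had the same sign, the exception being miR-7a-1-3p (-0.17, adjusted p = 0.754). The sizes did not match in every pair: for miR-148b-5p the log2 fold change was 0.88 (adjusted p = 0.168), against 0.34 for miR-148b-3p, and for miR-340-3p it was 0.01 (adjusted p = 0.968), against 0.30 for miR-340-5p. miR-465b-3p and miR-465c-3p, of identical mature sequence, both enter that count. The pair of miR-465c-5p and miR-465c-3p enters it from each side, since both were called. Over all tested miRNAs, with each pair counted once, 88 of 139 pairs had the same sign.

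The diet response of liver differed from that of eWAT for many miRNAs. In 1 fit of the 36 liver and eWAT libraries, the difference between the HF against LF effects of both tissues was called for 159 of 595 miRNAs (26.7%). Of the called liver miRNAs, miR-107-3p was higher in HF livers while its eWAT level averaged 133 CPM in HF mice and 189 CPM in LF mice, and the liver effect exceeded the eWAT effect by 1.10 (SE 0.22, adjusted p = 0.000674). let-7e-5p averaged 3463 CPM in eWAT of HF mice and 2949 CPM in eWAT of LF mice, so that the difference was -1.11 (SE 0.17, adjusted p = 8.53e-05). Because the called miRNAs were picked by their change in these same liver libraries, the sign and size of such differences partly reflect that choice.

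For miR-125a-5p the liver effect minus the eWAT effect was -0.78 (adjusted p = 0.00172) and for miR-99b-5p -0.49 (adjusted p = 0.0113), so the liver effect was the more negative for all 3 main members of that locus. miR-149-5p was higher under HF in both tissues, by 1.88 in liver and 0.64 in eWAT, and more so in liver (difference 1.23, adjusted p = 0.00428). The difference for miR-802-5p, 4.38, rests on eWAT values of 0 to 0.196 CPM in HF mice and 0 to 3.33 CPM in LF mice, at or near the detection limit.

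Some responses were not called as different between the tissues. miR-335-5p changed by 0.75 in liver and 1.02 in eWAT (difference -0.26, SE 0.39, adjusted p = 0.691). For miR-26a-5p the values were -0.31 and -0.41 (difference 0.10, SE 0.16, adjusted p = 0.709), and for miR-34a-5p 0.95 and 0.91 (difference 0.041, SE 0.34, adjusted p = 0.953), liver first. These p-values do not show that the responses of both tissues are alike.

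**Figure D5:**
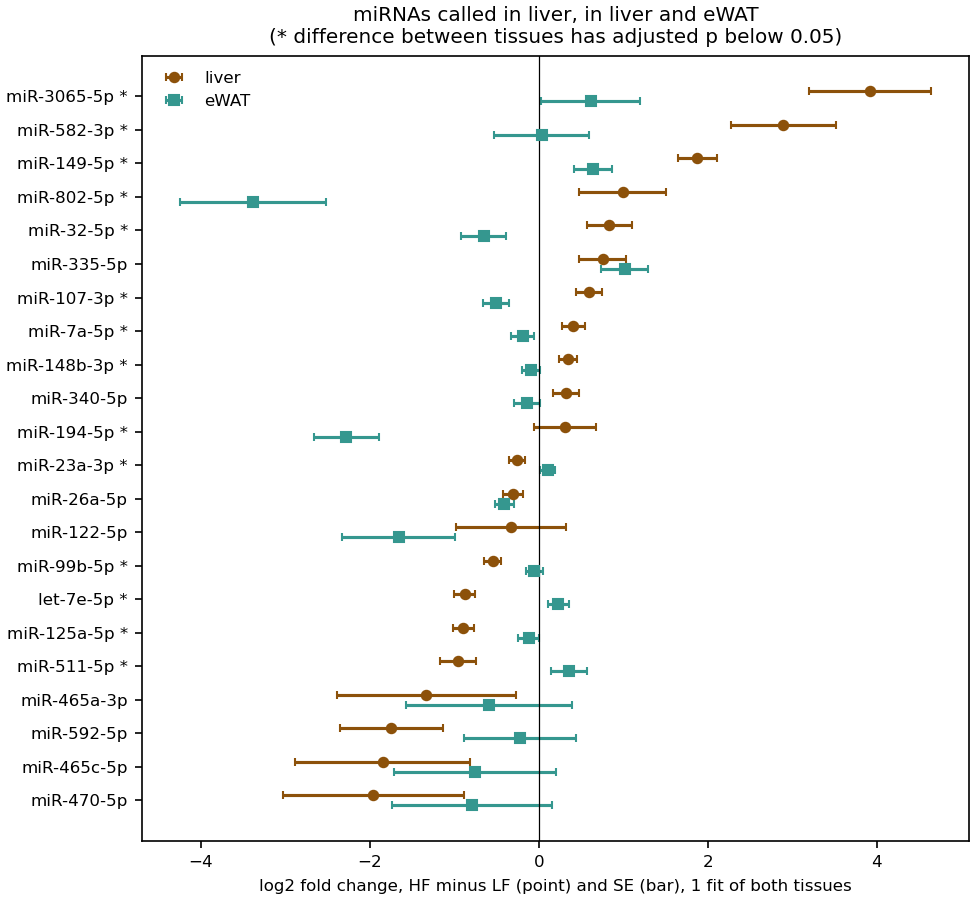
Log2 fold changes (HF minus LF, x axis) of the miRNAs called in liver, for liver (brown circles) and eWAT (green squares) from 1 fit of both tissues, with bars of 1 SE. miR-465b-3p and miR-465c-3p, which share the sequence of miR-465a-3p, are left out. An asterisk marks an adjusted p below 0.05 for the difference between tissues. Among those on opposite sides of 0 are let-7e-5p, miR-107-3p, miR-511-5p, miR-802-5p, miR-194-5p, miR-32-5p, miR-7a-5p, miR-148b-3p, miR-340-5p and miR-23a-3p. Among those on the same side are miR-149-5p, miR-335-5p and miR-26a-5p.

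Across single HF libraries, between 18 (HF 5) and 23 (HF 2 and HF 3) of the 24 called miRNAs lay beyond all 6 LF values in the called direction, a description only, since the same libraries made the calls. In HFLF livers, which shared the fit and ended on low fat, miR-149-5p averaged 88.05 ± 23.4 CPM, miR-802-5p 136 ± 14.7 CPM, let-7e-5p 1096 ± 191 CPM and miR-125a-5p 3492 ± 633 CPM (SD, n = 6 each). Their HF means were 178, 184, 794 and 2561 CPM, and their LF means 47.4, 92.6, 1456 and 4763 CPM.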

How the data were processed

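Per the labels' protocols, the authors extracted total RNA with TRI reagent and made libraries with a NEXTFLEX Small RNA-seq Kit (v3). The submitters' processing notes name cutadapt, Bowtie and the build GRCm38.p6; tool versions, the reference of miRNA sequences and the counter are not given in the sources used here. The deposited table holds raw counts per mature miRNA, and liver columns coded LH, LC and LR were read as HF, LF and HFLF, although the labels do not define C and R. The diet printed once as HLD was read as the high-fat diet. The eWAT counts entered only the comparison of tissues. The sperm table, on a log2 scale as the authors deposited it, with 18 further columns that match no sample of the series and a column of cluster numbers (other: no measurement), was not used.

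Counts of all 18 liver libraries were fitted with edgeR 4.0.16 in R 4.3.3 (filterByExpr by diet, TMM, quasi-likelihood test), and HF was set against LF. P-values are 2-sided, with Benjamini-Hochberg adjustment over the 422 miRNAs tested, and a call is an adjusted p below 0.05. SE denotes a standard error. The tissue difference is the interaction in 1 such fit of 36 libraries, whose CPM are on their own scale. For log2 CPM the prior count was 2. The floor of 3 counts covers counting error only. The script was tested on simulated counts. Mature sequences and loci came from RefSeq and host genes from GENCODE M21, both on GRCm38. Replicate counts differed beyond sampling noise in each of 30 pairs of liver libraries (chi-square per degree of freedom 74.3 to 485).

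Named miRNAs are the 10 with the largest change in each direction among the called (all where fewer), the 6 called with the largest difference in CPM, the 5 most abundant in LF, and from each of 21 lists up to 4 called members or the 1 of smallest p, beside arms and seed relatives. The members and lists were chosen with earlier results of these data known. Alternatives were DESeq2 1.42.0, RLE factors, total counts with and without miR-122-5p, and no filter or at least 10 CPM in 6 libraries. Others were HF and LF libraries alone, a replicate block and 1 library left out in turn. Counts divided by their common divisor were chosen after seeing the data.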

Additional observations from a re-analysis of the deposited data

Results flagged for a closer look

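In 7 of 80 groups of 6 libraries examined for named miRNAs, an extreme library stood apart from the others, with a gap to its nearest neighbour on the log2 CPM scale above the critical value of Dixon's test for 6 values, as a share of the group's range; chance alone gives about 1 group in 20. LF 1 was low for miR-107-3p, at 256 CPM against 312 to 336 in the other LF libraries (gap 0.730 of the range). LF 4 was high for miR-465a-3p, at 7.42 CPM against 2.85 to 3.96 (0.661), and for miR-465b-3p (0.658) and miR-465c-3p (0.673), which have the same mature sequence and are not independent of it. LF 3 was high for miR-3065-5p, at 1.12 CPM against 0 to 0.137 (0.729), with the other LF values under the level of 3 counts. HF 1 was low for miR-7a-5p, at 1213 CPM against 1630.4 to 1762 in the other HF libraries (0.792), and HF 3 was low for miR-10a-5p, at 3344 CPM against 3641 to 3831 (0.627).

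For 22 named miRNAs the HF against LF effect differed between liver and eWAT by the test of the difference itself. It is given here as the liver log2 fold change minus the eWAT one. Over all miRNAs tested in both tissues the difference was called for 159 of 595 (26.7%). Several of the 22 lost the call under the replicate block across tissues, as given below. Among those called in liver it was positive for miR-802-5p (4.38), miR-3065-5p (3.31), miR-582-3p (2.86), miR-194-5p (2.59), miR-32-5p (1.49), miR-149-5p (1.23), miR-107-3p (1.10), miR-7a-5p (0.60) and miR-148b-3p (0.44). It was negative for miR-511-5p (-1.31), let-7e-5p (-1.11), miR-125a-5p (-0.78), miR-99b-5p (-0.49) and miR-23a-3p (-0.36). The miRNAs called in liver were picked by their change in these same liver libraries. The sign of their difference is thus in part fixed by that choice. Among those not called in liver it was positive for miR-205-5p (6.04), miR-375-3p (4.67), miR-183-5p (2.31), miR-144-3p (1.16), miR-29c-3p (1.15), miR-30e-5p (0.96) and miR-145a-3p (0.63) and negative for miR-382-5p (-2.26). For miR-29c-3p the liver effect was 0.15 and the eWAT effect -0.996, and for miR-382-5p they were -1.19 and 1.07. The eWAT libraries varied widely for miR-205-5p (1.07 to 4.53 CPM in HF mice and 1.70 to 299 CPM in LF mice) and miR-375-3p (0.374 to 58.7 CPM in HF mice and 2.67 to 1361 CPM in LF mice). For miR-183-5p they ran from 2.43 to 7.26 CPM in HF mice and from 3.11 to 82.2 CPM in LF mice. For miR-194-5p they ran from 71.4 to 95.0 CPM in HF mice and from 110 to 1071 CPM in LF mice. The liver effect of miR-194-5p was 0.31 and its eWAT effect -2.28.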

How the results depend on the processing

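Of the 24 calls, 12 were kept under each alternative that gave them a value and none changed sign. The number of calls moved by more than 1.5 times with DESeq2 (44, with 23 higher and 21 lower; all 24 among them), with total counts (61, with 51 higher and 10 lower) and with total counts without miR-122-5p (41, with 28 higher and 13 lower). Leaving out 1 library gave 16 (without LF 4) to 49 (without HF 5) calls, with 37 without LF 5 and 36 without HF 6. Calls higher ran from 8 (without LF 4) to 29 (without HF 5), with 17 without LF 3 or LF 5 and 21 without HF 6. Calls lower ran from 8 (without LF 4) to 20 (without HF 5 or LF 5). Groups without overlap numbered 12 to 26, with 23 without HF 1 and 26 without HF 5. The causes were not tested. Uncalled miRNAs near 0 changed sign with total counts, let-7a-5p to 0.084, miR-10a-5p to 0.0014, miR-145a-3p to 0.024 and miR-375-3p to 0.19 (0.042 without miR-122-5p in the total), and with 1 library left out the log2 fold change of let-7f-5p ran from -0.0042 to 0.062 and that of miR-375-3p from -0.20 to 0.15.

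No clear pairing of HF with LF libraries by liver replicate number was seen. The correlation of same-numbered deviations ran from -0.04 to 0.18, and 2 of 6 HF libraries correlated best with their own number. So few libraries cannot exclude a pairing. The replicate block gave 27 calls, all 24 among them. Numbers shared by liver and eWAT correlated at -0.07 to 0.13, and with that replicate block 103 tissue differences were called, 102 of them among the 159; without 1 library the count was 132 to 161. Under that block the uncalled differences of miR-465a-3p (1.04), miR-465b-3p (1.18), miR-465c-3p (1.23), miR-465c-5p (0.36) and miR-34a-5p (-0.032) changed sign, and with total counts those of miR-26a-5p (-0.090) and miR-34a-5p (-0.029) did. With 1 library left out, uncalled differences changed sign within -0.60 to 0.36 for miR-133a-3p, -0.0021 to 0.17 for miR-26a-5p, -0.12 to 0.18 for miR-34a-5p, -1.17 to 1.45 for miR-465a-3p, -1.17 to 1.44 for miR-465b-3p, -1.11 to 1.51 for miR-465c-3p, -1.56 to 1.11 for miR-465c-5p and -1.74 to 0.76 for miR-470-5p; the X-linked names were positive without eWAT HF 1. Tissue differences named above lost their call under the block for miR-145a-3p, miR-148b-3p, miR-183-5p, miR-205-5p, miR-23a-3p, miR-375-3p, miR-582-3p and miR-7a-5p (adjusted p 0.0529 to 0.208). Names under 1 CPM rest on a handful of reads per library.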

Other observations

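HF 1 stood at the end of the HF range for several unrelated miRNAs. It held the most miR-205-5p (62.7 CPM), miR-582-3p (32.4 CPM), miR-34a-5p (121 CPM) and miR-107-3p (659 CPM) of the HF livers and the least miR-592-5p (1.30 CPM), with the lowest share of miR-122-5p (37.9%), the fewest counts (7017730) and the highest TMM factor (1.21) of the HF libraries. The calls of miR-107-3p and miR-592-5p were kept without it. Those of miR-582-3p (adjusted p = 0.0807), miR-122-5p (0.0774), miR-465a-3p and miR-465c-3p ended without it.

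The muscle miRNA miR-133a-3p ran from 0.205 to 5.53 CPM in HF livers and from 2.75 to 11.99 CPM in LF livers, and in HFLF livers from 0.248 to 7.28 CPM.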
